A study of Mus musculus with 4 samples.

Results

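The proteasome genes of MPC11, an antibody-secreting line derived from a mouse plasma cell tumour, are described here across control and Ell2-depleted cultures. Members were the genes whose symbol begins with Psma, Psmb, Psmc, Psmd, Psme, Psmf or Psmg followed by a number, which took 49 of the 22722 genes counted. RNA of 4 cultures was sequenced on the SOLiD platform. Of these, 2 carried the pLKO.1 lentiviral hairpin against GFP, a sequence mouse cells lack (shGFP, the control), and 2 carried the pLKO.1 hairpin 1C7 against Ell2 (Ell2-KD). Ell2 encodes an elongation factor of RNA polymerase II. All 4 cultures were exposed to virus for 18 h, selected in puromycin for 72 h and expanded for a further 72 h. Each arm rests on a single hairpin in 1 cell line, and the labels do not say whether the replicates were transduced separately, so p-values cover only the variation among these libraries, which may be technical.

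The proteasome is the protease that degrades ubiquitin-tagged proteins in the cytosol and nucleus. Its 20S core is a barrel of stacked rings, with outer rings of alpha subunits that gate entry and inner rings of beta subunits, a few of which carry the active sites. The 19S cap recognises ubiquitin, unfolds the substrate with a ring of ATPases and feeds it into the core. In lymphoid cells and under interferon, the catalytic beta subunits can be replaced by Psmb8, Psmb9 and Psmb10, which form the immunoproteasome. Plasma cells depend on this machinery to clear misfolded immunoglobulin exported from the endoplasmic reticulum, and myeloma is treated with proteasome inhibitors.

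Library totals ran from 3496471 counts (Ell2-KD replicate 2) to 13914488 (Ell2-KD replicate 1). Ell2 stood at 938 and 996 CPM (TMM-normalised counts-per-million values) under shGFP and 87.8 and 115 CPM under Ell2-KD, or -3.25 ± 0.23 (SE) on the log2 scale, with an edgeR adjusted p of 0.00032. The 8 plasma cell markers looked for summed to 20358 and 15469 CPM of the library total under shGFP and to 16428 and 12758 under Ell2-KD. The 6 B cell markers summed to 1407 and 1370.3 under shGFP and to 1944 and 1803 under Ell2-KD, both higher in the depleted libraries, and the part of this in the results was not tested. T and NK cell markers summed to between 0.934 and 4.86 and myeloid markers to between 1.44 and 4.46, with S100a8 at 0 in each library. Among 6 stromal and epithelial markers, Epcam alone was abundant, at 444 to 629 CPM.

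None of the 47 members that had enough counts to be tested passed the test for a change on Ell2 depletion, in either direction. The smallest edgeR adjusted p among them was 0.965 (Psmb2), and 0 of 47 passed, where 0.0453% of all 11027 tested genes did (0.00907% higher and 0.0363% lower). At an unadjusted p under 0.05 edgeR also gave 0 of 47 members, against 5.82% of all tested genes, and DESeq2 gave 0 members at either threshold. Log2 changes of the members ran from -0.43 to 0.52, with 23 positive and 24 negative, and 50.1% of all tested genes were negative. Their median was -0.02, beside -0.00 over all tested genes. The median size of change regardless of sign was 0.17 for the members and 0.33 for all tested genes, which include many of lower abundance. In these bulk cultures, fewer cells of a type and less RNA per cell cannot be told apart.

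The precision allows a bound on what could have been missed. For 36 of 47 members the 95% interval of the log2 change lay wholly between -1 and 1, so it held no 2-fold difference. The same was true of 30.3% of all tested genes, which include many of lower abundance and hence of lower precision. The 11 exceptions were Psma3, Psma7, Psmb5, Psmc3ip, Psmd3, Psmd9, Psmd10, Psme1, Psme2, Psmg3 and Psmg4. These were members with few counts or with replicates that lay far apart. Both depleted libraries lay on one side of both controls for 8 members, 17.0% of those tested, against 35.8% of all tested genes. Of these 8, Psma6, Psmd6 and Psmd9 were higher in the depleted cells and Psmb7, Psmc1, Psmc3, Psmd2 and Psmd13 lower.

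**Figure D1:**
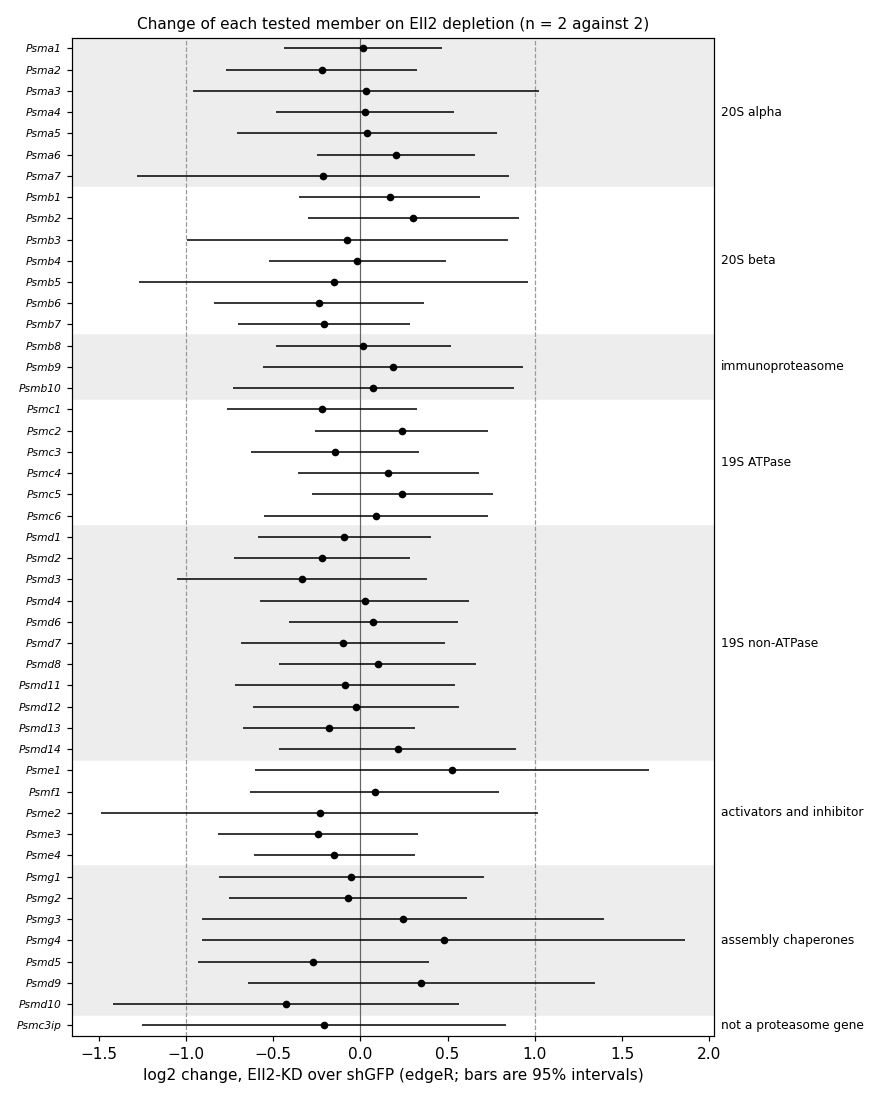
Log2 change of each of the 47 tested members, Ell2-KD over shGFP (points, edgeR fit with 2 libraries a group), with 95% intervals (bars), grouped by role. Every interval includes 0, and 36 lie wholly between the dashed lines at -1 and 1.

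As a whole, the 49 genes took 0.849% and 0.909% of all counts in replicates 1 and 2 of shGFP, and 0.854% and 0.882% in those of Ell2-KD. The groups overlapped. The 20S core took 0.273% and 0.319% under shGFP and 0.284% and 0.298% under Ell2-KD. For the 19S cap the shares were 0.376% and 0.388% against 0.384% and 0.376%. The 3 immunoproteasome genes took 0.0359% and 0.0413% under shGFP and 0.0443% and 0.0352% under Ell2-KD. In each of these classes the groups overlapped.

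The 20S alpha ring had 7 tested genes, with a median log2 change of 0.03, 5 positive and 2 negative. Levels are compared between genes as CPM per kb of exon, since longer transcripts yield more reads. Psma6, an alpha ring subunit, had the highest level of all members, at 302 and 344 CPM per kb in replicates 1 and 2 of shGFP and at 367 and 377 in those of Ell2-KD. Both depleted libraries lay above both controls, but the log2 change of 0.21 ± 0.21 (SE) did not pass (edgeR adjusted p = 0.973). The size of its lead depends on the length used. The union of exons was 1234 bases for Psma6 and 2952 for Psma1, and the longest transcript 1042 and 1201. Per kb of longest transcript, Psma6 was still the highest as a mean over all libraries, at 412 CPM, but Psma1 lay close to it. Psma3, whose product lies in the same ring, was the lowest of the tested alpha genes and is named after its values were seen, at 7.07 and 11.9 CPM per kb under shGFP and 6.69 and 12.8 under Ell2-KD. Levels of the tested alpha genes, whose products occupy the ring in equal numbers, spanned 36.2-fold per length.

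Psma7, which encodes an alpha subunit, differed between its replicates. It stood at 293 and 683 CPM in replicates 1 and 2 of shGFP and at 324 and 519 CPM in those of Ell2-KD. In both groups the second replicate was the higher, and the groups overlapped (log2 change -0.21 ± 0.44, SE). Psma2, an alpha subunit too, was at 253 and 182 CPM under shGFP and 180 and 193 CPM under Ell2-KD (-0.22 ± 0.25, SE). Here shGFP replicate 1 alone stood above the rest. The testis-specific alpha subunit gene Psma8 was not tested, with 1 and 2 counts under shGFP and 1 and 0 under Ell2-KD, where a count of 0 allows up to 0.858 CPM of the library total.

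The 20S beta ring had 7 tested constitutive genes, 2 with a positive and 5 with a negative log2 change (median -0.08). Psmb4, a structural beta subunit with a role in core assembly, was the highest per length, at 151 and 186 CPM per kb under shGFP and 146 and 186 under Ell2-KD. Its replicates differed by more than its groups. Psmb2, another subunit without an active site, had the smallest unadjusted p of all members, 0.29. It stood at 98.7 and 128 CPM in replicates 1 and 2 of shGFP and at 127 and 154 CPM in those of Ell2-KD, with overlapping groups (log2 change 0.30 ± 0.27, SE; edgeR adjusted p = 0.965). Psmb3, also named after its values were seen, was the lowest of the 7 per length, at a mean of 13.0 CPM per kb over the 4 libraries. Psmb11, the thymus-specific catalytic subunit, was not tested, with 7 and 0 counts in the controls and 3 in each depleted library; the count of 0 allows up to 0.59 CPM of the library total.

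The active sites of the core lie in Psmb6 (caspase-like), Psmb7 (trypsin-like) and Psmb5 (chymotrypsin-like), and in the immunoproteasome these places are taken by Psmb9, Psmb10 and Psmb8 in turn. Psmb8 stood at 262 and 324 CPM under shGFP and 320 and 273 CPM under Ell2-KD, so that the groups overlapped fully (log2 change 0.02 ± 0.23, SE). Psmb5, the gene of the subunit it replaces, was at 16.5 and 22.8 CPM under shGFP and 20.9 and 14.1 CPM under Ell2-KD, with 48 to 295 counts a library. Per length, Psmb8 ran from 77.6 to 95.7 CPM per kb and Psmb5 from 15.6 to 25.4. Psmb8 was the higher in each library.

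The other pairs were ordered the opposite way. Psmb9 stood at 45.8 and 56.4 CPM under shGFP and 67.0 and 48.9 CPM under Ell2-KD, and Psmb6 at 129 and 172 against 143 and 112 CPM. Per length Psmb9 lay between 12.5 and 18.3 CPM per kb and Psmb6 between 59.9 and 92.1. Psmb10 was at 48.1 and 36.9 CPM under shGFP and 50.6 and 38.6 CPM under Ell2-KD, and Psmb7 at 237 and 224 against 197 and 201 CPM. Per length these ran from 21.6 to 29.7 and from 57.7 to 69.2 CPM per kb. In both pairs the constitutive gene was the higher in each library. The order of the 6 genes by level per length was therefore Psmb8, Psmb6, Psmb7, Psmb10, Psmb5 and Psmb9, in which Psmb8 and Psmb6, Psmb6 and Psmb7, Psmb10 and Psmb5, and Psmb5 and Psmb9 overlapped between libraries, while Psmb7 and Psmb10 did not.

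Within a library, the ratio of an immunoproteasome gene to its constitutive partner does not depend on the scaling between libraries. Psmb8 to Psmb5 was 4.22 and 3.76 in replicates 1 and 2 of shGFP and 4.06 and 5.11 in those of Ell2-KD, as counts per exon length. Psmb9 to Psmb6 was 0.182 and 0.167 under shGFP and 0.24 and 0.223 under Ell2-KD. Psmb10 to Psmb7 was 0.408 and 0.332 under shGFP and 0.514 and 0.387 under Ell2-KD. Only the ratio of Psmb9 to Psmb6 separated the groups, with both depleted libraries above both controls.

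On the log2 scale the Ell2-KD minus shGFP difference in the ratio was 0.41 for Psmb9 to Psmb6, with both within-group SDs at or under 0.09. An exact two-sided permutation test over the 4 libraries gave p = 0.333, the smallest that 6 splits allow, and 0.667 after Benjamini-Hochberg adjustment over the 3 pairs. Within replicate numbers 1 and 2 the difference was 0.40 and 0.42 for this pair, 0.33 and 0.22 for Psmb10 to Psmb7, and -0.06 and 0.44 for Psmb8 to Psmb5. It was thus positive within both numbers for the first 2 of these pairs. Neither gene of that pair passed alone: Psmb9 had a log2 change of 0.19 ± 0.34 (SE) and Psmb6 of -0.24 ± 0.27. For Psmb8 to Psmb5 and Psmb10 to Psmb7 the differences were 0.19 and 0.28, each with an exact permutation p of 0.667. With 2 libraries against 2, this permutation test cannot reach a p of 0.05 for any of these ratios, whatever their size.

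**Figure D2:**
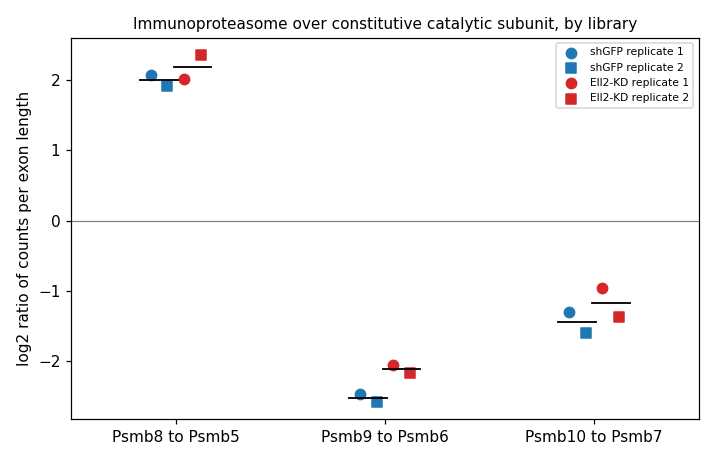
Log2 ratio of counts per exon length of each immunoproteasome gene to the constitutive gene it replaces, for the 4 libraries (points; bars are group means). Psmb8 to Psmb5 lies above 0 in each library and the other pairs below it, and only for Psmb9 to Psmb6 do the Ell2-KD points both lie above the shGFP points.

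The size of these ratios rests on the gene lengths. Taking the longest transcript as the length, Psmb8 to Psmb5 ran from 6.66 to 9.06, Psmb9 to Psmb6 from 0.11 to 0.157 and Psmb10 to Psmb7 from 0.359 to 0.557, and no ratio crossed 1. The annotation names pseudogenes of Psmb5, Psmb6 and Psmb7, and exons of Tap1 and Nek6 on the opposite strand overlap those of Psmb9 and Psmb7. Only pseudogenes bearing the symbol of a member were looked for, so those of other members under other symbols may have been missed. An antisense transcript, Gm20496, overlaps Psmb8, and the microRNA gene Mir686 lies over Psmb5 on the same strand. Their part in the levels was not tested.

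The windows upstream of Psmb5 and Psmb8 and of Psmb6 and Psmb9 are shown because these pairs encode alternative occupants of the same catalytic place and were ordered oppositely. Each is the 250 bases before the RefSeq start in GRCm38.p6, a build other than that of the count tables, read 5′ to 3′ on the strand of the gene: Psmb5 at chr14:54617996-54618245 (minus), Psmb8 at chr17:34197945-34198194 (plus), Psmb6 at chr11:70525107-70525356 (plus) and Psmb9 at chr17:34187331-34187580 (minus). Capitals mark matches to any of 5 motifs named below.
Psmb5: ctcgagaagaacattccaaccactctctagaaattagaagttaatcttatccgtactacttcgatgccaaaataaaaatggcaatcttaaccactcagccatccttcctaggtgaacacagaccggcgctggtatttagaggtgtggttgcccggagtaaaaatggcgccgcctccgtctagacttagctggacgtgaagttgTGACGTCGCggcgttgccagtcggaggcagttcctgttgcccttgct
Psmb8: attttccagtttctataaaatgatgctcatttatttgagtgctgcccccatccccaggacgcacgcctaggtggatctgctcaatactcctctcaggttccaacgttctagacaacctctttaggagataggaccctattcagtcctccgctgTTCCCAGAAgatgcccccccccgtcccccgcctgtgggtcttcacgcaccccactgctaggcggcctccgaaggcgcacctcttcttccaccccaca
Psmb6: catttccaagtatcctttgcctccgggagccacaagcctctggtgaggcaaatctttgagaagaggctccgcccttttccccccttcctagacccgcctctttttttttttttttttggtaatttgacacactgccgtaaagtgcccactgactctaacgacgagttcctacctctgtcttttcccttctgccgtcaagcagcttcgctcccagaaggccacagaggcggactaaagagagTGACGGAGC
Psmb9: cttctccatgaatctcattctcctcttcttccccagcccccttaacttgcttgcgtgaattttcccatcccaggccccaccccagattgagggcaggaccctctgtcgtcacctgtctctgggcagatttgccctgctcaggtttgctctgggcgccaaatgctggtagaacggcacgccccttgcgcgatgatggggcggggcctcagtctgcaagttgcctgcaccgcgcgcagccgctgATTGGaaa

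In these windows the capitals are TGACNNNGC in Psmb5 and Psmb6, the form of the antioxidant response element that Nfe2l1 and Nfe2l2 bind, TTCNNNGAA in Psmb8, the form of the gamma-activated site of STAT factors, and CCAAT on the opposite strand, the NF-Y box, in Psmb9. Both strands were searched, and each of these windows holds 1 match. The window of Psmb10, not shown, holds no match to any of the 5 motifs, and Psmb7 had no window. The same search covered the 41 members with a RefSeq window, 8 having none. TGACNNNGC stood in the windows of 5 of the 41 genes (12.2%) and in 10.2% of all 32817 RefSeq windows of this length. CCAAT stood in 15 (36.6%) against 33.8%, TTCNNNGAA in 2 (4.88%) against 7.01%, and the interferon-stimulated response element in 3 (7.32%) against 2.97%. CCGGAAG, a form bound by ETS factors, stood in 13 (31.7%) against 6.9%. The member shares count genes with a match in any of their 44 windows, and the shares over all windows count single windows. The units thus differ. Psmc3ip, which is not a proteasome gene, is among the 13 and among the 15. These are matches of letters only.

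The ATPase ring of the 19S cap had 6 genes, Psmc1 to Psmc6, all tested, with a median log2 change of 0.12, 4 positive and 2 negative. Levels of these partners lay closer together than in the other classes named here, spanning 3.04-fold per length. Psmc5 was the highest, at 187 and 150 CPM per kb under shGFP and 219 and 179 under Ell2-KD, and its groups overlapped (log2 change 0.24 ± 0.24, SE). Psmc2, the lowest per length, stood at 252 and 306 CPM under shGFP and 356 and 302 CPM under Ell2-KD (0.24 ± 0.23, SE; edgeR adjusted p = 0.968). Ell2-KD replicate 1 alone stood above the rest. Psmc1 was at 149 and 179 CPM under shGFP and 144 and 138 CPM under Ell2-KD, with both depleted libraries below both controls (-0.22 ± 0.25, SE; edgeR adjusted p = 0.982).

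The non-ATPase subunits of the cap, 11 genes and all tested, comprise the scaffold, the ubiquitin receptor Psmd4 and the deubiquitinase Psmd14, which strips ubiquitin from the substrate. Their median log2 change was -0.09, with 4 positive and 7 negative. Psmd1, a large scaffold subunit of the base, stood at 398 and 332 CPM under shGFP and 301 and 383 CPM under Ell2-KD, with overlapping groups (log2 change -0.09 ± 0.23, SE). Psmd2, the other large scaffold subunit and a docking site for ubiquitin shuttles, was at 230 and 206 CPM under shGFP and 192 and 183 CPM under Ell2-KD. Psmd13, a lid subunit, was at 261 and 231 CPM under shGFP and 217 and 218 CPM under Ell2-KD. For both, each depleted library lay below each control, with log2 changes of -0.22 ± 0.23 and -0.18 ± 0.22 (SE) and edgeR adjusted p of 0.978 and 0.989.

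Psmd3, a further lid subunit, had the lowest log2 change of this class, -0.34 ± 0.33 (SE; edgeR adjusted p = 0.97). It was at 208 and 151 CPM in replicates 1 and 2 of shGFP and at 187 and 96.9 CPM in those of Ell2-KD, so the groups overlapped and the second replicate was the lower in both. Psmd12 and Psmd11, lid subunits as well, marked the ends of the class per kb of exon. The upper end depends on the length used. With the longest transcript as the length, 1387 bases for Psmd6 and 1955 for Psmd12, Psmd6 stood above Psmd12. Psmd12 was at 85.3 and 138 CPM per kb under shGFP and 98.5 and 121 under Ell2-KD, and Psmd11 at 15.9 and 14.3 against 15.8 and 12.5. Neither separated the groups.

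**Figure D3:**
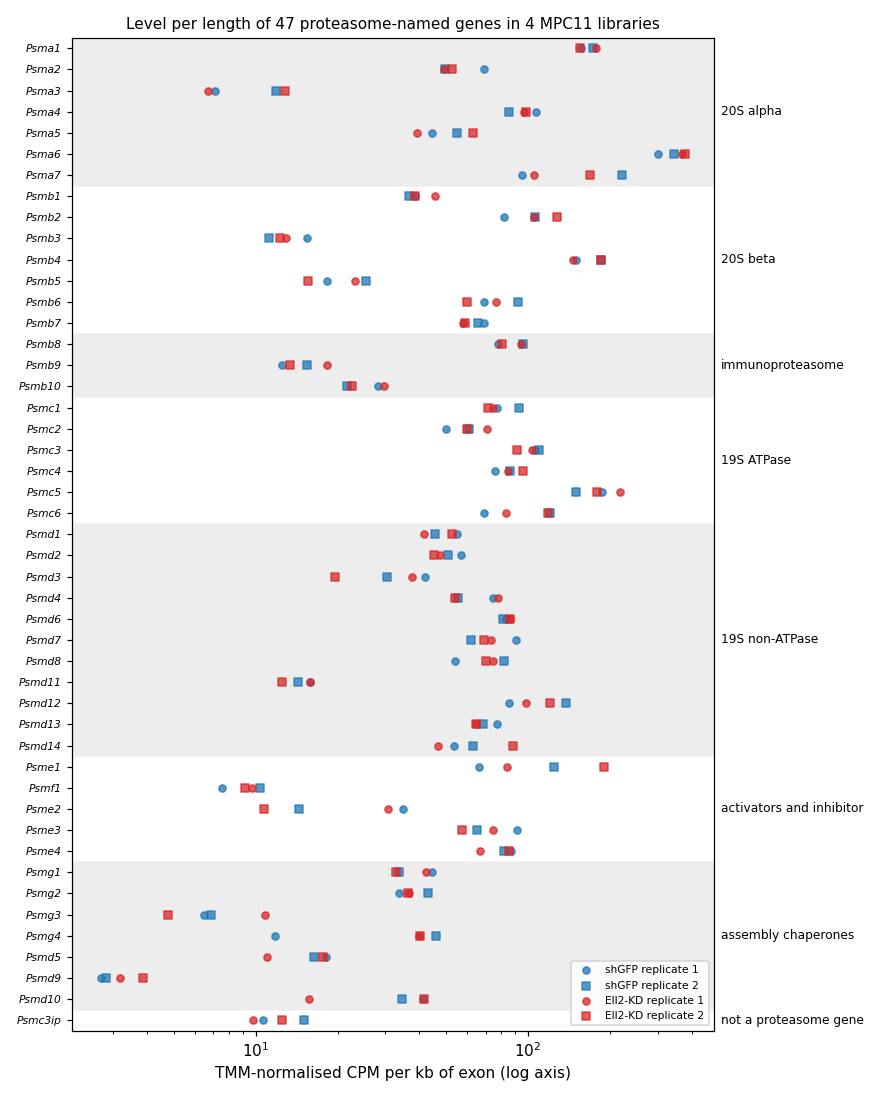
Level of each of the 47 tested members in the 4 libraries, as TMM-normalised CPM per kb of exon on a log axis, grouped by role (blue shGFP, red Ell2-KD; circles replicate 1, squares replicate 2). Levels run from about 3.15 for Psmd9 to 348 for Psma6 as means, and red and blue points intermingle for most genes.

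Activators open the core without the 19S cap. Psme1 and Psme2 encode the partners of the interferon-inducible PA28 ring, and they are neighbours in the genome with the gene Emc9 between them. Psme1 stood at 146 and 275 CPM in replicates 1 and 2 of shGFP and at 185 and 420 CPM in those of Ell2-KD. Psme2 stood at 61.5 and 25.4 CPM under shGFP and 54.3 and 19 CPM under Ell2-KD. In both groups, then, the second replicate was the higher for Psme1 and the lower for Psme2.

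The ratio of Psme1 to Psme2, as counts per exon length, accordingly went from 1.89 and 2.72 in replicate 1 of shGFP and Ell2-KD to 8.60 and 17.5 in replicate 2. This ratio was chosen after its values were seen, and its size rests on the gene lengths. The union of exons was 2209 bases for Psme1 and 1764 for Psme2, and the longest transcript 1986 and 962. With the longest transcript as the length, the ratio would be lower in each library. Psme1 had the largest positive log2 change of all members, 0.52 ± 0.47 (SE), with groups that overlapped (edgeR adjusted p = 0.967). For Psme2 the value was -0.23 ± 0.56 (SE). Exons of Emc9, listed under its older name Fam158a with 0 to 12 counts a library, overlap those of Psme1.

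Psme3, the nuclear PA28 gamma, was at 270 and 192 CPM under shGFP and 220 and 169 CPM under Ell2-KD (log2 change -0.24 ± 0.26, SE). Psme4, which encodes the large activator PA200, had the most counts of all members relative to library size, at 730 and 683 CPM under shGFP and 559 and 716 CPM under Ell2-KD. Per length it ranked 15 among the members, at a mean of 80.2 CPM per kb. Psmf1, an inhibitor of the core in vitro, was the lowest of this class, at 7.52 and 10.4 CPM per kb under shGFP and 9.69 and 9.18 under Ell2-KD. The groups overlapped for all 3 genes.

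Assembly chaperones bind intermediates and leave the finished particle. Psmg1 to Psmg4 act on the core and Psmd5, Psmd9 and Psmd10 on the ATPase ring. Their median level per length was 33.2 CPM per kb, beside 70.2 for the 17 genes of the 19S cap and 25.5 for the 3 immunoproteasome genes. For the 16 listed 20S core genes it was 58.9. The untested Psma8 and Psmb11, at means of 0.059 and 0.10 CPM per kb, are among these 16 and lower that median. Psmd10 (gankyrin) had the most negative log2 change of all members, -0.43 ± 0.45 (SE; edgeR adjusted p = 0.978). It was at 60.6 and 50.8 CPM under shGFP and 23.1 and 60.9 CPM under Ell2-KD, so the value rested on Ell2-KD replicate 1. Without that library it was 0.13.

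Psmd5 showed the same arrangement, at 131 and 118 CPM under shGFP and 79.8 and 128 CPM under Ell2-KD (-0.27 ± 0.30, SE). Psmd9, the lowest tested member per length, was at 19.7 and 20.4 CPM under shGFP and 23.1 and 28.1 CPM under Ell2-KD. Both depleted libraries lay above both controls (0.35 ± 0.45, SE; edgeR adjusted p = 0.99). Psmg1, the highest of the class per kb of exon, stood at 59.6 and 45 CPM against 56.6 and 44.2. Psmg2 was nearly level with it, at means of 37.3 and 38.2 CPM per kb for Psmg2 and Psmg1. With the longest transcript as the length, 1300 and 1044 bases, Psmg2 stood slightly above Psmg1. Psmg4, named after its values were seen, had 55 counts in shGFP replicate 1, or 6.56 CPM, against 22.1 to 25.6 CPM in the other libraries. Psmc3ip meets the rule by its symbol but encodes a partner of meiotic recombinases; it stood at 19.4 and 27.4 CPM under shGFP and 17.7 and 22.8 CPM under Ell2-KD.

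Replicates differed among the members, as they did among all tested genes. For 23 of 47 the replicates numbered 2 lay on one side of those numbered 1 in both groups, 12 higher and 11 lower. That is 48.9% of the members, against 40.1% of all tested genes. Of the members named here, Psma7 and Psme1 were among the higher ones and Psme2, Psme3 and Psmd3 among the lower. The median absolute log2 difference between replicates was 0.31 under shGFP and 0.30 under Ell2-KD over the 47 members. Over 10777 tested genes with counts in each library, many of lower abundance, it was larger, at 0.40 and 0.49. Within replicate number 1 the median log2 difference, Ell2-KD minus shGFP, was 0.06 over the members, and within number 2 it was -0.03. The sign was the same within both numbers for 20 of 47 members (42.6%), against 57.4% of 10777 tested genes with counts in each library. Pearson's r between these paired sets of differences was -0.24 across the 47 genes and 0.14 across those 10777, as a description, since genes are not independent replicates.

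**Figure D4:**
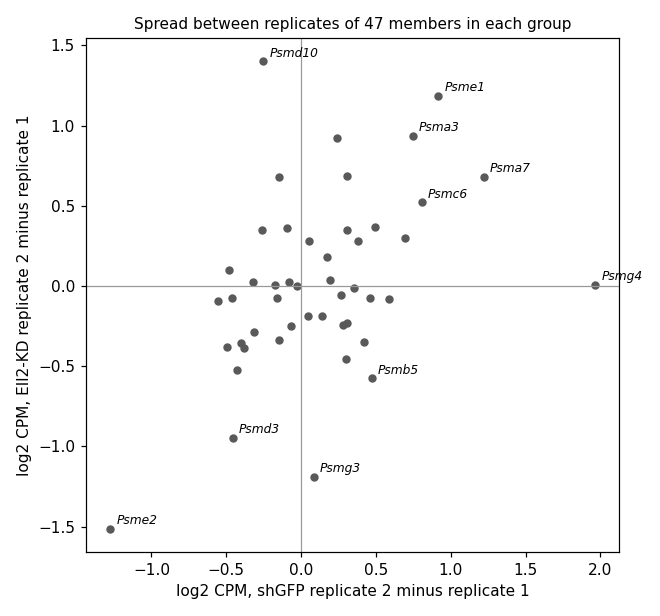
Log2 CPM of replicate 2 minus replicate 1 in shGFP (horizontal axis) and in Ell2-KD (vertical axis) for the 47 tested members, with selected genes named. Psma7 and Psme1 lie toward the upper right and Psme2 far toward the lower left, while Psmg4 and Psmd10 depart along 1 axis only.

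The wider pathway gave no call either. Of 41 genes looked for by name, 40 were tested: partners of the particle, ubiquitin and its activating enzymes, delivery factors, transcriptional regulators and genes of interferon control and peptide supply. No gene of the list passed with edgeR or DESeq2, higher or lower, and at an unadjusted p under 0.05 edgeR gave 1 of 40 (Zfand5) and DESeq2 gave 2 (Zfand5 and Irf1). Over all 11027 tested genes these thresholds were met by 642 (5.82%) and 689, so the list held no larger share. The log2 change was positive for 24 and negative for 16, with a median of 0.13. Zfand5, a ubiquitin-binding zinc finger protein that activates the proteasome, was at 174 and 195 CPM under shGFP and 227 and 344 CPM under Ell2-KD (log2 change 0.63 ± 0.26, SE; edgeR adjusted p = 0.811). Irf1, an interferon-responsive activator of immunoproteasome genes, was at 50.9 and 84.7 CPM against 111 and 109 CPM (0.70 ± 0.32, SE; edgeR adjusted p = 0.853). Nfyb, a subunit of the CCAAT-binding factor, was at 50.3 and 60.5 CPM against 73.7 and 94.6 CPM (0.60 ± 0.31, SE; edgeR adjusted p = 0.871). The log2 change of Zfand5 was 0.31 without Ell2-KD replicate 2, and that of Irf1 was 0.39 without shGFP replicate 1 and 1.11 without shGFP replicate 2. For these genes, the 3 with the smallest unadjusted p of the list, both depleted libraries lay above both controls. Choice by p favours such a separation, so it adds no evidence. Over the list the groups did not overlap, in either direction, for 15 of 40 genes, against 35.8% of all tested genes.

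Tap1 and Tap2 encode the peptide transporter that carries proteasome products into the endoplasmic reticulum, and they are neighbours of Psmb8 and Psmb9 in the genome. They are named as neighbours, after their values were seen. Tap1 was at 39.6 and 32.7 CPM under shGFP and 34.8 and 22.5 CPM under Ell2-KD, and Tap2 at 51.5 and 53.6 against 66.0 and 65.0 CPM. Tap2 separated the groups and Tap1 did not, and neither passed (edgeR adjusted p = 0.97 and 0.99). Nfe2l1, the factor that raises proteasome genes when the particle is inhibited, was named in the same way and was at 234 and 167 CPM under shGFP and 186 and 107 CPM under Ell2-KD (log2 change -0.45 ± 0.31, SE; edgeR adjusted p = 0.919).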

How the data were processed

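For each of the 4 libraries the authors deposited raw counts, 1 value per gene symbol, per the file headers. DESeq 1.4.1, HTSeq 0.5.3, SAMtools 0.1.11 and build mm9 were used per the submitters' processing notes. The aligner, annotation, strand setting and rule for multiply matching reads were not given in the sources used here. Antisense and overlapping reads therefore cannot be separated; exons of 14 members overlap another gene.

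The test was edgeR 4.0.16 in R 4.3.3 (filterByExpr, minimum count 10 and minimum total 15; TMM; robust glmQLFit and glmQLFTest, two-sided; group as the only term), with Benjamini-Hochberg adjustment over 11027 genes and a threshold of 0.05. The SE is the size of a log2 change over the square root of F. CPM is TMM-normalised. It was divided by the union of exons in GENCODE M21 (GRCm38, lengths and gene order only), which matched all 49 members. Ratios of genes used counts plus 0.5. Counts limit precision for genes of low abundance, and the intervals and limits from a count of 0 cover only the error stated. Alternatives were other scalings and filters, DESeq2 1.42.0, other settings, the replicate block and leaving out each library.

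The members and gene lists were chosen with earlier results of these data known. Named in the text were Ell2, the catalytic subunits, Psmd1, untested members, the 3 smallest unadjusted p values and the highest and lowest level per length of each role class, and the 3 smallest p values of the pathway list. Psma3, Psmb3, Psme2, Psmg4 and other exceptions were named after their values were seen. Of the pathway list, Paaf1 was not analysed here. Promoter windows are from RefSeq.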

Additional observations from a re-analysis of the deposited data

How the results depend on the processing

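With 2 libraries a group, no member passed in any of the 12 alternative fits, while the count over all genes, 5 in the reported fit, was 46 with DESeq2, 2 with library totals alone, 22 without the filter on low counts, 1 with the robust setting off, and 14 (without shGFP replicate 1), 22 (without shGFP replicate 2), 142 (without Ell2-KD replicate 1) and 82 (without Ell2-KD replicate 2); a lone library in an arm is then assumed to vary like the others. Libraries of the same number deviated together (r = 0.31 over 11027 genes), but the labels do not say what a number marks. With the replicate block, 28 genes and no member passed. Psme1 then had an unadjusted edgeR p of 0.021. It was the 1 member of 47 under 0.05 in that fit, against 1168 of all 11027 tested genes. The median log2 change, reported as -0.02 for all members, ran from -0.043 to 0.085 with 1 library left out. For the 20S core it was -0.00, and 0.038 without the filter, -0.028 under upper quartile scaling and -0.071 to 0.11 with 1 library left out. For the 19S cap it was -0.03, and 0.025 without the filter, -0.053 under upper quartile scaling, 0.010 with the replicate block and -0.085 to 0.059 with 1 library left out. For the immunoproteasome genes it was 0.07, and -0.10 to 0.26 with 1 library left out. The cause of these shifts was not tested.

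An unadjusted p under 0.05 was held by 1 member of 47 without shGFP replicate 1 (389 of 11459 genes in all), 1 without shGFP replicate 2 (600 of 11791), 3 without Ell2-KD replicate 1 (1373 of 11448) and 2 without Ell2-KD replicate 2 (1049 of 11914), with a smallest adjusted p of 0.0686. Of 28 members named by the rule and tested, 18 turned sign with 1 library left out, none passing the test. Their log2 changes ranged from -0.11 to 0.17 (Psmb8), -0.48 to 0.10 (Psmb5), -0.060 to 0.40 (Psmb9), -0.14 to 0.29 (Psmb10), -0.27 to 0.073 (Psmd1), -0.45 to 0.050 (Psma2), -0.69 to 0.52 (Psma7), -0.19 to 0.15 (Psmb4), -0.89 to 0.064 (Psmd3), -0.32 to 0.36 (Psmd12), -0.27 to 0.073 (Psmd11), -0.18 to 1.05 (Psme1), -0.47 to 0.038 (Psme3), -0.33 to 0.02 (Psme4), -0.12 to 0.33 (Psmf1), -1.26 to 0.13 (Psmd10), -0.63 to 0.035 (Psmd5) and -0.25 to 0.18 (Psmg1). Without a turn of sign, leaving out 1 library moved the log2 change by over 1.5 times for Psma6 (0.12 to 0.30), Psmb2 (0.14 to 0.50), Psmb6 (-0.42 to -0.016), Psmc1 (-0.34 to -0.085), Psmc2 (0.11 to 0.38), Psmc5 (0.089 to 0.42), Psmd2 (-0.30 to -0.13), Psmd13 (-0.27 to -0.077) and Psmd9 (0.21 to 0.49). Signs also turned for Psmb8 under upper quartile scaling (-0.0092), for Psmb4 (0.02), Psmd12 (0.025) and Psmg1 (0.0053) without the filter, and for Psmd12 with the replicate block (0.010). The difference in the ratio of Psmb9 to Psmb6 ran from 0.35 to 0.47 with 1 library left out, that of Psmb8 to Psmb5 from 0.03 to 0.36 and that of Psmb10 to Psmb7 from 0.07 to 0.48. A pseudocount of 0 moved none of them beyond the spread between replicates, and the choice of gene length cancels in these differences.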
